A study of Rattus norvegicus with 8 samples.

Results

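The genes described are those of the cytosolic ribosomal proteins in rat thyroid cells. A gene was a member when its probe sets carried a single symbol that starts with Rpl or Rps and a digit, or that is Rplp0, Rplp1, Rplp2 or Rpsa, with the S6 kinase genes left out. The rule found 57 probe sets for 50 genes, of 14217 genes with a single symbol on the array. Of these, 47 were bright enough to be tested among 10047 genes, each read through its brightest probe set. Rpl3l, Rps4x-ps1 and Rps4y2 were too dim to be tested. The members' names use no measured value of any contrast, but the choice was made with earlier results of these data known.

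Cytosolic ribosomal proteins build the small (40S) and large (60S) subunits around the ribosomal RNAs, and dividing cells make them in near equal amounts. Their mRNAs are among the most abundant of a cell and share a start-site feature, the 5′ terminal oligopyrimidine (TOP) tract: a C at the first transcribed base followed by a run of C and T. Through it, mTORC1 and the RNA-binding protein LARP1 control the translation of these mRNAs. In thyroid follicular cells, TSH acts through its receptor and cAMP to drive hormone synthesis and, in rat lines of this kind, growth, while excess iodide restrains thyroid function.

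The cells were the SB5 sub-clone of FRTL-5, a rat thyroid follicular line that depends on TSH, grown with 5 mU/ml bovine TSH in all groups. They stably expressed a human TSH receptor, either L629F, known as an activating mutant, or wild type, beside their own rat receptor. The 4 groups were L629F cells with 1 mM sodium iodide, L629F cells with 1 mM sodium chloride, wild type cells with 1 mM sodium iodide and wild type cells with 1 mM sodium chloride, with 2 arrays each. The study's title names the effect of iodine on early thyroid autonomy as its question. There was 1 line for each receptor, the time with the salt is not in the labels, and these do not say that the 2 arrays of a group came from separate cultures. Differences between receptors are therefore differences between 2 lines, and p-values measure only the spread between arrays, which may be technical.

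The values were MAS5 signals, whose trimmed mean was set to about 500.2 on every array. Of the thyroid genes listed as markers, 7 of 9 had a mean signal above 1000, among them Tg, Pax8, Nkx2-1, Foxe1 and Hhex, with Tshr and Dio1 below. Their summed signal ran from 54380.2 to 56274 in L629F iodide, 51608 to 56151 in L629F chloride, 45517 to 56814 in wild type iodide and 49183 to 54260.0 in wild type chloride arrays. None of the listed leucocyte, C cell, fibroblast or endothelial markers had a mean signal above 1000. The 8 leucocyte genes summed to 582 to 650 in L629F iodide and 611 to 641 in L629F chloride arrays, against 744 to 793 in wild type iodide and 684 to 787 in wild type chloride arrays, with Ptprc, their defining gene, at a mean of 20.9. The ratio of 3′ to 5′ signal of Gapdh, a sign of RNA length, was 2.27 and 2.49 on L629F iodide arrays against 1.54 and 2.17 on L629F chloride arrays. It was 1.4 and 3.13 on wild type iodide arrays against 1.22 and 1.55 on wild type chloride arrays. The same ratio of actin was 5.95 and 6.48 in L629F cells with iodide against 5.93 and 7.9 with chloride, and 3.66 and 9.15 in wild type cells with iodide against 2.23 and 5.05 with chloride.

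The start-site windows below show how far the annotated starts of these genes carry the TOP letters. They belong to members that the comparisons turn on, and come from RefSeq on the rat build GRCr8, written 5′ to 3′ from 10 bases before to 20 bases from the annotated start, with the longest run of at least 5 C or T in capitals.
Rpl19 (chr10:83519054-83519083, plus strand): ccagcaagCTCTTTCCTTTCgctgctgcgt
Rpl35 (chr3:43165902-43165931, minus strand): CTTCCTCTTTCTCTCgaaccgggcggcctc
Rps28 (chr7:15311314-15311343, minus strand): ccctgctcacgtgaCTCCTCTCCgctagat
Rpl13a (chr1:104748894-104748923, minus strand): TCCTTTCCTaggcggctgccgaagatggcg
Rpsa (chr8:128728869-128728898, plus strand): ccgcgctaccctggaacgggtccgtacggc
Rps23 (chr2:23814507-23814536, plus strand): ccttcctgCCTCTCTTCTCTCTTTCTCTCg
Rps9 (chr1:74430418-74430447, minus strand): cggccacgTTTCTCTTTgtcacgggcctga
Rpl24 (chr11:58128386-58128415, minus strand): tagggaggagaTTCTCTaccctataaggtg
Windows were found for 43 of the 50 members and missing for 7. A C at the annotated start followed by at least 4 C or T stood in 10 of the 34 bright members with a window (29.4%), and in 12 of all 43 (27.9%). The same letters stood in 214 of 8388 other tested genes (2.55%) and in 722 of 27457 genes with a window (2.63%). A run of at least 8 C or T within 15 bases either side of the start stood in 22 of the 34 (64.7%), 25 of the 43 (58.1%), 878 other tested genes (10.5%) and 3124 of all genes (11.4%). Of the 8 windows shown, those of Rpl19 and Rpl35 have such a C at the annotated start, after the first 10 bases printed. That of Rpsa holds no run of 5. Only the strand of the gene was searched, the searches can count the same bases, and an annotated start can lie some bases from the start used in cells.

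The array signals of the members fell into 2 parts. Of them 38, written as bright from here on, had a mean signal of at least 9000, a level chosen after seeing the data, of which 26 belong to the 60S and 12 to the 40S subunit. The dimmest of them, Rpl14, averaged 9454, and the next member down, Rps27l, 2521. A signal depends on the probes as well as on the mRNA, so signals are set against each other only within a gene. The 47 tested members held 3.3 and 3.37% of the array's total signal on L629F iodide arrays, 3.01 and 2.7% on L629F chloride arrays, 3.43 and 3.95% on wild type iodide arrays and 2.86 and 3.05% on wild type chloride arrays.

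Iodide was first set against chloride as the mean of the differences in the L629F and wild type cells. With iodide 6 ribosomal protein genes rose and 0 fell: Rpsa, Rpl19, Rpl23a, Rps28, Rpl35 and Rpl13a, by 1.29 to 1.37-fold. All 38 bright members had higher signals with iodide on average, with a median difference of 0.34 on the log2 scale (1.27-fold), and 44 of the 47 tested members did, where 52.2% of all genes had a positive difference. In bulk RNA of a cell line, a change in every cell and a change in some of the cells cannot be told apart. Signals scaled to a common trimmed mean do not give mRNA per cell. Over all 10047 genes the median was 0.012. As set out after the single genes, other genes with a mean signal of at least 9000 also shifted upwards, with a median of 0.22, and the shift depended on how the arrays were scaled.

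The 6 that passed were 12.8% of the members, where 0.518% of all genes tested rose and 1.08% fell (limma, Benjamini-Hochberg over all genes, 0.05). At an unadjusted p under 0.05, 36 of 47 members were higher and 0 lower, against 7.9% and 7.32% of all genes. In 34 of the 38 bright members both iodide arrays lay above both chloride arrays in each line, and in 36 of the 47, against 8.17% of all genes. The exceptions among the bright members were Rpl21, Rpl24, Rps15a and Rps9.

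Rpsa, a 40S protein also known as the laminin receptor, had signals of 15419.8 and 15403 in L629F cells with iodide against 12767 and 11116 with chloride, and 15297 and 17303 in wild type cells with iodide against 10568 and 11700.5 with chloride. Each iodide array was above both chloride arrays of its line. The average difference was 0.46 ± 0.085 (log2 ± SE, adjusted p = 0.0161). Rps28, a 40S protein near the mRNA exit, gave 17042 and 16337 in L629F cells with iodide against 14554 and 12109.5 with chloride, and 18534 and 20099.6 in wild type cells with iodide against 13196 and 14942 with chloride. The average difference was 0.39 ± 0.087 (adjusted p = 0.0407), and again the groups did not overlap within either line.

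Of the 60S genes that rose, Rpl35 and Rpl23a sit around the tunnel through which the new chain leaves the ribosome. Rpl35 had signals of 17477 and 16964 in L629F cells with iodide against 15046 and 12953 with chloride, and 20009 and 22435 in wild type cells with iodide against 15469.5 and 15568 with chloride. Its average difference was 0.38 ± 0.082 (adjusted p = 0.0377). Rpl23a, on which factors dock that receive the new chain, had signals of 18982 and 18444 in L629F cells with iodide against 15134 and 13986 with chloride, and 18329 and 24426 in wild type cells with iodide against 13990.3 and 16244 with chloride. The highest value of Rpl23a came from the second wild type iodide array, and the average difference was 0.43 ± 0.098 (adjusted p = 0.047).

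Rpl19 forms a bridge to the 40S subunit, and its signals were 21976 and 23029.9 in L629F cells with iodide against 18375 and 16486 with chloride, and 23146 and 33164 in wild type cells with iodide against 18356 and 19769 with chloride. It differed by 0.45 ± 0.10 (adjusted p = 0.0462), without overlap in either line. Rpl13a, in human myeloid cells also part of a complex that silences translation, read 20794 and 20703 in L629F cells with iodide against 17729.7 and 14704 with chloride, and 19570.0 and 22258 in wild type cells with iodide against 16093 and 15927 with chloride. Its difference was 0.37 ± 0.085 (adjusted p = 0.0462) and was alike in L629F (0.36) and wild type cells (0.38).

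**Figure D1:**
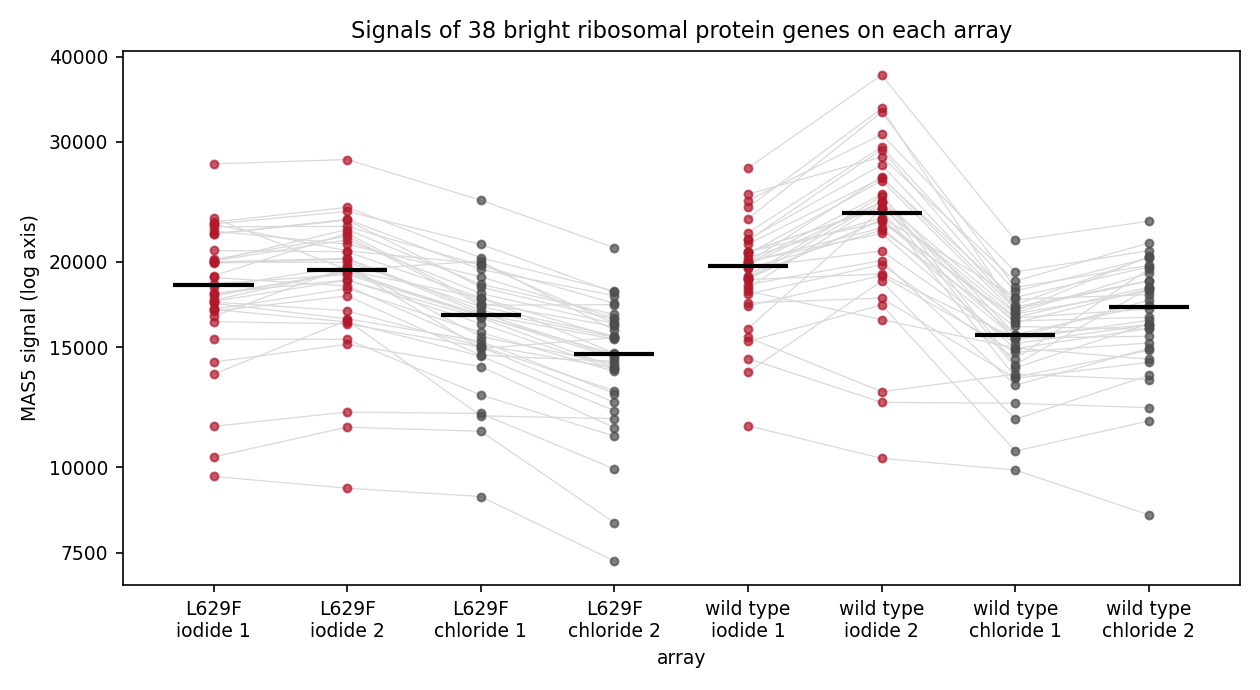
MAS5 signals (log axis) of the 38 bright ribosomal protein genes on each of the 8 arrays, in red with iodide and in grey with chloride, with thin lines joining a gene within a line of cells and bars at the median. The median lies at 18475 and 19460.2 on the L629F iodide arrays against 16721 and 14686 on the L629F chloride arrays, and at 19713 and 23557 on the wild type iodide arrays against 15641 and 17178 on the wild type chloride arrays.

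The plot of signals by array shows the bright genes moving as a block. The second wild type iodide array stood highest, with a median of 23557, and it also had the highest Gapdh ratio of the 8 arrays. The second L629F chloride array stood lowest, with a median of 14686, at a Gapdh ratio of 2.17. The lowest ratio, 1.22, was that of the first wild type chloride array, whose median was 15641. Over the 8 arrays, the median Pearson correlation between pairs of bright members was 0.90 (703 pairs), against 0.57 between pairs of other genes with a mean signal of at least 9000. These points share the arrays and their scaling. After the median of the bright members was taken off each array, the median SD of a bright member over the arrays fell to 0.0749, against 0.226 before, on the log2 scale. Part of that fall is built in, since the median taken off was their own.

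The 32 bright members that did not pass had differences between 0.083 and 0.44. Rpl5 and Rpl11, which join the 5S ribosomal RNA to the large subunit and bind Mdm2 when assembly is disturbed, differed by 0.34 ± 0.10 (adjusted p = 0.119) and 0.26 ± 0.081 (adjusted p = 0.13). Rps6, the substrate of S6 kinase, had signals of 17511 and 18813 in L629F cells with iodide against 16576 and 14011 with chloride, and 18907 and 23058 in wild type cells with iodide against 15622 and 16175 with chloride. Its difference was 0.32 ± 0.0901 (adjusted p = 0.0932). Rplp0, the base of the stalk that engages translation factors, differed by 0.36 ± 0.11 (adjusted p = 0.12). Rps29, Rpl26, Rpl35a and Rps23 were with Rpl19 the 5 brightest members, and the differences of the 4 were 0.42, 0.37, 0.33 and 0.44, with adjusted p between 0.0513 and 0.073. The median difference was 0.34 over the 26 bright 60S members and 0.33 over the 12 bright 40S members, with 4 and 2 past the threshold.

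Of the remaining bright genes, Rpl3, which reaches the site of peptide bond formation, differed by 0.34 ± 0.096 (adjusted p = 0.0932), and Rpl4, which lines the exit tunnel, by 0.34 ± 0.11 (adjusted p = 0.13). Rps3, at the mRNA entry of the 40S subunit, differed by 0.33 ± 0.081 (adjusted p = 0.0617), and Rpl23, which binds Mdm2, by 0.36 ± 0.0899 (adjusted p = 0.0631). Rpl6, Rpl7a, Rpl22, Rpl27a and Rpl37a lay between 0.35 and 0.38, and Rpl21, Rpl27 and Rps15a between 0.21 and 0.25. None of these passed, with adjusted p between 0.0516 and 0.411.

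Rpl24 and Rps9 had the smallest differences among the bright members. Rpl24, a 60S protein that joins the subunit late, in the cytoplasm, had signals of 11485 and 12055 in L629F cells with iodide against 11997 and 9946 with chloride, and 15508 and 12911 in wild type cells with iodide against 13697 and 13451 with chloride. The arrays overlapped in both lines and the difference was 0.083 ± 0.092 (adjusted p = 0.727). Rps9, a 40S protein bound early in assembly, had signals of 10359 and 11456 in L629F cells with iodide against 11298 and 8301 with chloride, and 14440.0 and 12455 in wild type cells with iodide against 12418 and 12234 with chloride. Its difference was 0.15 ± 0.10 (adjusted p = 0.555). With arrays centred on the median of the bright members, a scaling chosen after seeing the data, Rpl24 stood at -0.25 ± 0.0903 (adjusted p = 0.04997) and the dim Rpl39l1 at -0.56 ± 0.18 (adjusted p = 0.0358), the only members called in the iodide average then. That scaling put the median of all genes at -0.32 and called 2099 of 10047 genes lower and 7 higher. As deposited, the 0.083 of Rpl24 was the lowest value among the bright members and nearer the median of all genes, 0.012. It also lay under the lower quartile, 0.15, of the 51 other genes with a mean signal of 12000 to 15000, whose median was 0.22.

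Among genes with a mean signal of at least 9000, the shift was larger in the brighter ranges, in members and other genes alike. Among members with a mean signal of 9000 to 12000 the median difference was 0.19 (2 genes) and among other genes 0.16 (90 genes). From 12000 to 15000 the medians were 0.31 (4 members) and 0.22 (51 other genes), and from 15000 to 18000 they were 0.34 (12 members) and 0.30 (17 other genes). Above 18000 they were 0.35 (20 members) and 0.34 (12 other genes), so the medians of the brightest ribosomal protein genes and of the brightest other genes were close. Of the 170 other genes with a mean signal of at least 9000, 152 were higher with iodide, 9 of them past the threshold.

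**Figure D2:**
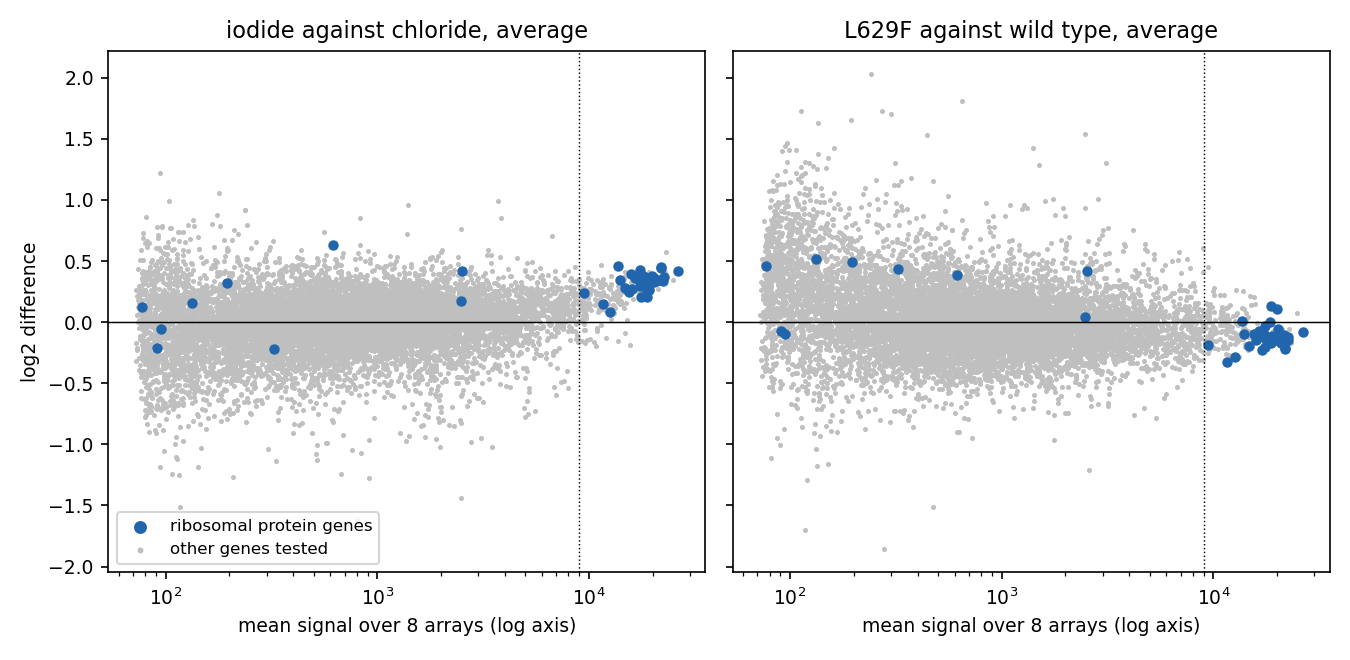
Log2 difference of every gene tested against its mean signal over the 8 arrays (log axis), for iodide against chloride on the left and L629F against wild type on the right, with ribosomal protein genes in blue, other genes in grey and a dotted line at a signal of 9000. On the left the grey points rise at the bright end together with the blue ones, and on the right most bright blue points lie under 0, with a median of -0.13.

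The size of the shift changed with the scaling of the arrays. Quantile normalization, which gives every array the same set of values, left a median of 0.011 over the 47 members, with 27 positive and none past the threshold. The bright members lay between percentiles 99.07 and 99.99 of mean signal. A shift shared by the brightest genes is therefore largely taken off by construction, whatever its origin, and this setting cannot show where the shift came from. Centring each array on the other genes of at least 9000, chosen after seeing the data, left a median of 0.15 with all-gene median -0.17, and 5 members were higher: Rpl19, Rpl23a, Rpl26, Rps29 and Rpsa. With the median over every probe set as each array's centre, 22 members were higher, and over all genes the calls were then 99 higher and 96 lower, against 52 and 109 as deposited. Under quantile normalization they were 35 higher and 123 lower, and centred on the other bright genes 18 and 461. The part of the array's scaling in the iodide difference was not otherwise tested.

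**Figure D3:**
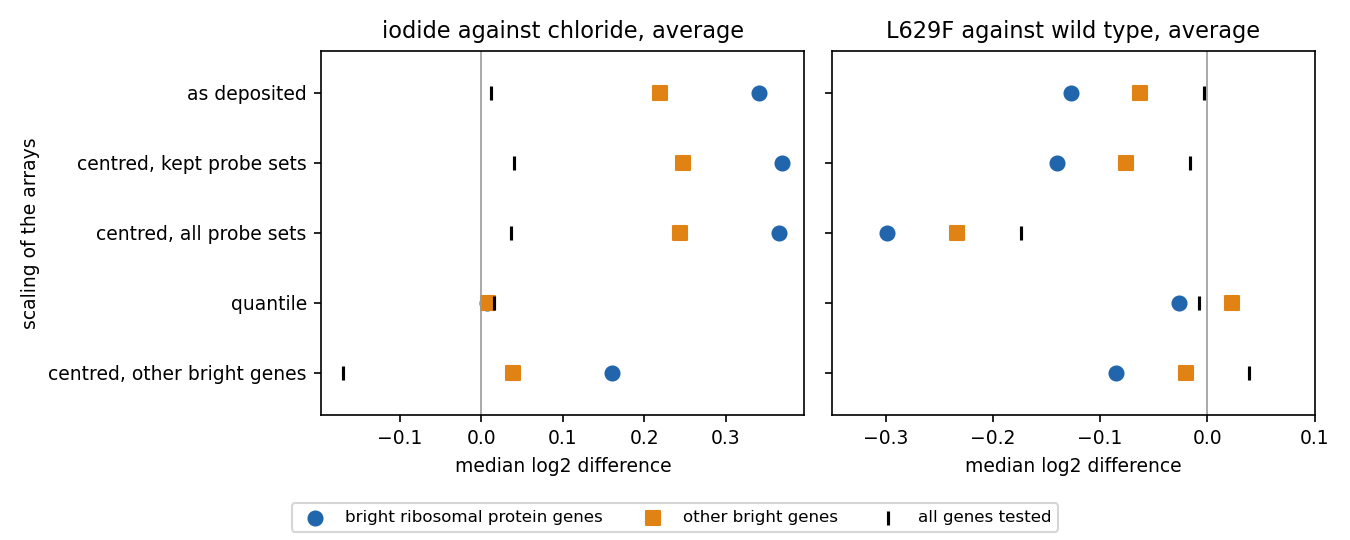
Median log2 difference (horizontal axis) under 5 scalings of the arrays (rows), for iodide against chloride on the left and L629F against wild type on the right, over 38 bright ribosomal protein genes (blue circles), 170 other genes of at least 9000 (orange squares) and all genes tested (black bars). With iodide the blue circles lie right of the orange squares except under quantile normalization, where all 3 medians lie close to 0.

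The Gapdh ratio averaged 2.38 with iodide and 1.85 with chloride in L629F cells, and 2.26 with iodide and 1.38 with chloride in wild type cells, where the arrays overlapped. With the Gapdh ratio as a covariate, 1 member, Rpsa, was called in the iodide average, and with the 2 arrays highest in that ratio left out none was. The median over the 47 members was then 0.26 with the covariate and 0.25 without those arrays, against 0.33 as deposited, and all 38 bright members stayed positive under both settings. The calls also rested on single arrays, and the number called over all genes moved the same way each time 1 array was left out. Leaving out either wild type chloride array, the second L629F chloride array or either L629F iodide array left 0 members called. Without the first wild type iodide array 28 were called, without the second 1, and without the first L629F chloride array 3.

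Taken line by line, iodide gave no call among members in either line. In L629F cells, all 38 bright members had a positive difference (against 51.3% of all genes), with a median of 0.28 and 34 without overlap (20.2% of all genes did this), while 0.00995% of all genes rose past the threshold. In wild type cells, all 38 again had one (against 53.1%), with a median of 0.39 and 36 without overlap (against 23.7%), while 0.0796% of all genes rose. At an unadjusted p under 0.05, 20 members were higher in L629F cells and 32 in wild type cells, against 3.73% and 6.25% of all genes. The largest differences were in Rpl39, Rps27l and Rpl28 in L629F cells (0.59 ± 0.42, 0.39 ± 0.16 and 0.39 ± 0.39) and in Rpl39, Rps23 and Rpsa in wild type cells (0.67 ± 0.42, 0.61 ± 0.16 and 0.55 ± 0.12).

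**Figure D4:**
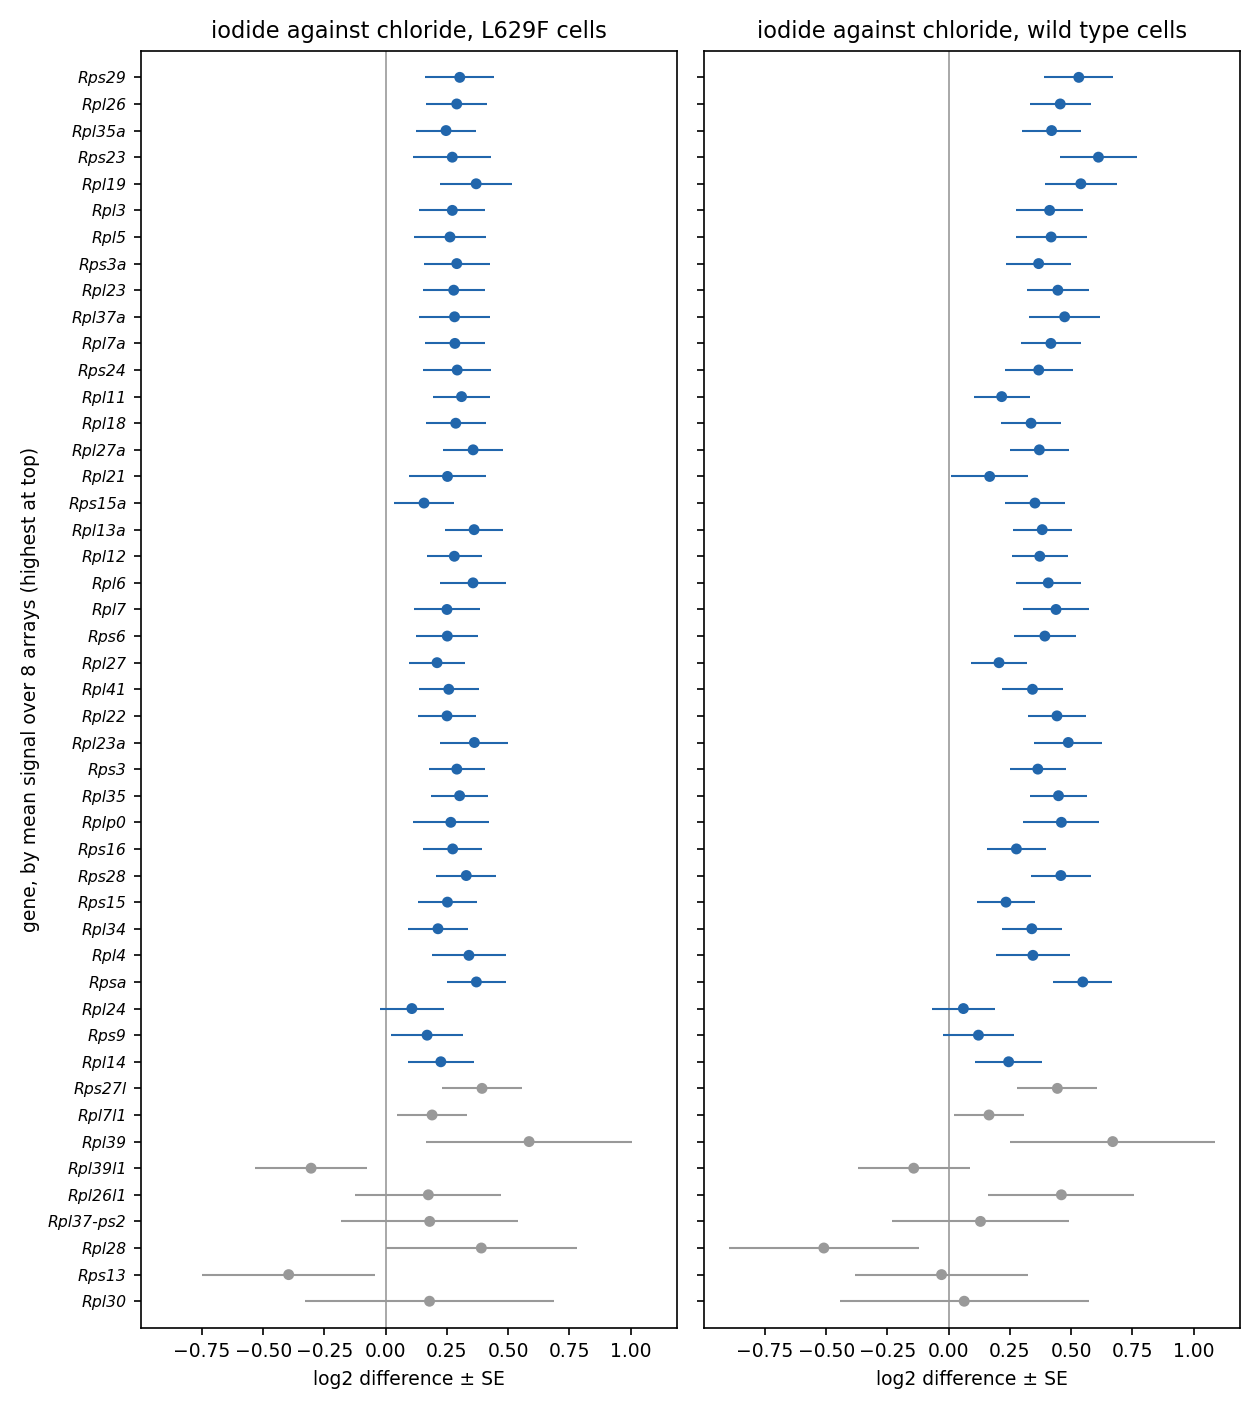
Log2 difference ± SE of iodide against chloride (horizontal axis) in L629F cells on the left and wild type cells on the right, for each of the 47 tested members from the highest mean signal at the top, with the 38 bright members in blue and the others in grey. The bright members lie right of 0 in both lines, between 0.11 and 0.37 in L629F cells and between 0.0599 and 0.61 in wild type cells.

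Whether iodide acted differently in the 2 lines was tested as the difference between these differences, L629F minus wild type. No member passed (smallest adjusted p among members 0.993), none had an unadjusted p under 0.05 (against 2.16% of all genes higher and 2% lower), and the count over all genes was also 0. The median was -0.13 over the bright members and -0.058 over other genes of at least 9000. Rps23, in the decoding centre of the 40S subunit, had the lowest value among the bright members, -0.34 ± 0.22, and its signals were 22710.5 and 20767 in L629F cells with iodide against 19884 and 16259.7 with chloride, and 24047 and 33570.4 in wild type cells with iodide against 16940.3 and 20390.0 with chloride. The second wild type iodide array held the highest of these 8 values. The median SE of this test over the bright members was 0.178, and among the dim members the SE reached 0.72 (Rpl30).

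The 9 tested members of lower signal were less alike. They comprise 5 relatives of standard members, Rps27l, Rpl7l1, Rpl39l1, Rpl26l1 and Rpl37-ps2, a transcribed pseudogene, and 4 standard proteins whose probe sets read low, Rpl39, Rpl28, Rps13 and Rpl30. None passed the iodide test. Rps27l, the paralogue of Rps27 that p53 induces in human cells, had signals of 3466 and 3082 in L629F cells with iodide against 2836 and 2168 with chloride, and 2245 and 2741 in wild type cells with iodide against 1784 and 1846 with chloride. Both iodide arrays were above both chloride arrays in each line, and the difference was 0.42 ± 0.12 (adjusted p = 0.0893). Rpl39, which lines the exit tunnel, had signals of 787 and 817 in L629F cells with iodide against 944 and 283 with chloride, and 444 and 877 in wild type cells with iodide against 295 and 487 with chloride. Its difference was the largest of all members at 0.63 ± 0.30, with overlap in both lines and an adjusted p of 0.34. The values of Rpl39l1, Rps13 and Rpl28 were negative, -0.22 ± 0.16 (adjusted p = 0.564), -0.21 ± 0.25 and -0.0597 ± 0.28. Those of Rpl7l1, Rpl26l1, Rpl37-ps2 and Rpl30 were positive, 0.18 ± 0.10, 0.32 ± 0.21, 0.15 ± 0.25 and 0.12 ± 0.36, with adjusted p of at least 0.448. Rpl28, Rps13 and Rpl30 averaged 95, 90.9 and 77.1, close to the dimmest signal kept, 69.9.

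**Figure D5:**
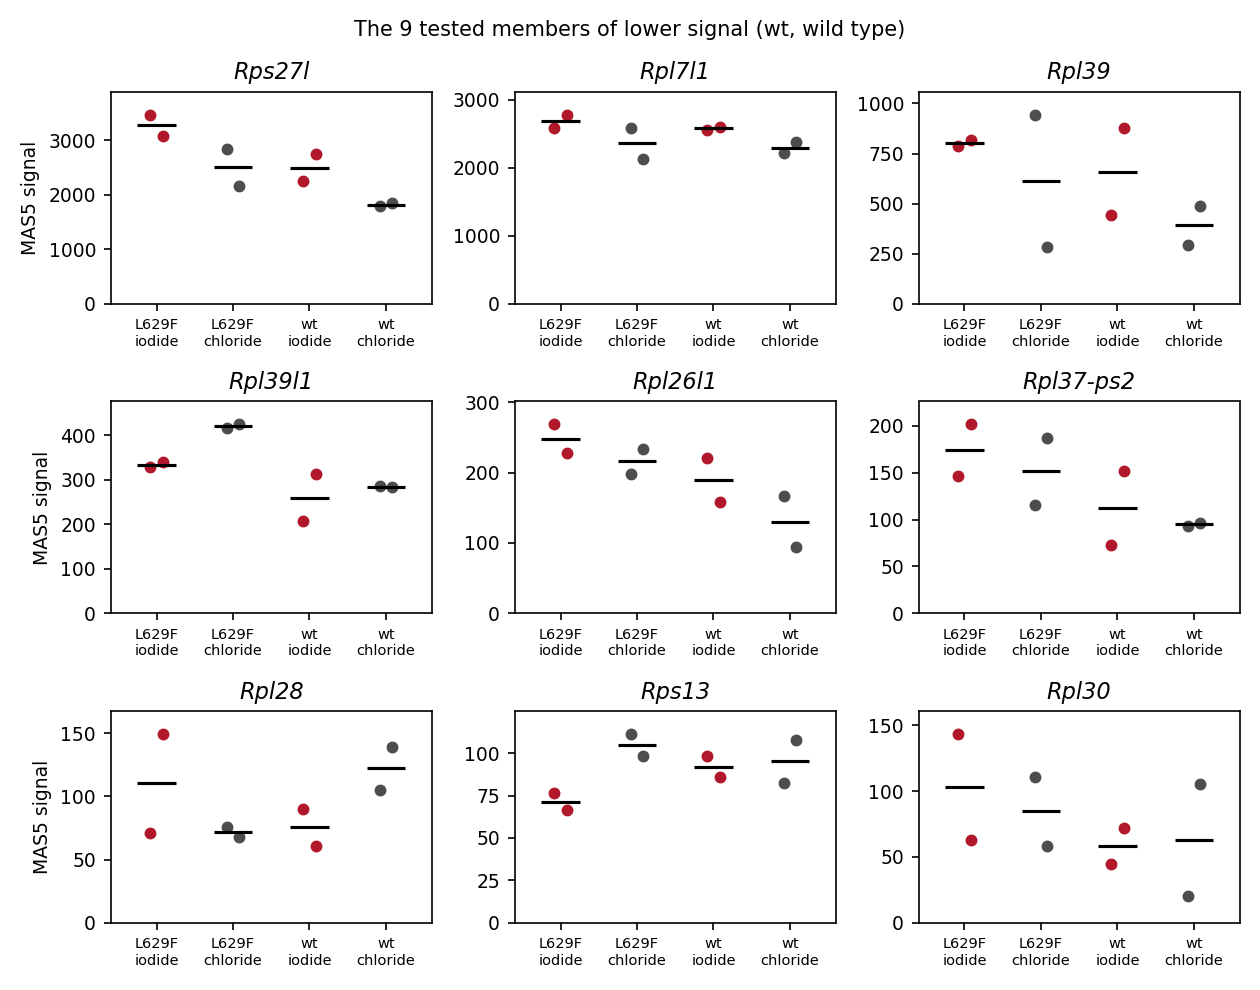
MAS5 signals of the 9 tested members of lower signal, 1 panel each with its own axis from 0, with a point for each array (red with iodide, grey with chloride) and a bar at the mean of 2 arrays, in the order L629F iodide, L629F chloride, wild type iodide and wild type chloride. Rps27l is higher with iodide in both lines and higher in L629F cells with either salt, and the points of Rpl28 and Rpl30 cross.

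Different probe sets of a gene did not always give the same difference. Rpsa had 3, with iodide differences of 0.46, 0.29 and 0.39 from the brightest to the dimmest. With limma fitted to all kept probe sets their adjusted p were 0.03, 0.291 and 0.148. The brightest ends in _s_at and the dimmest in _x_at. With probe sets of these endings left out, Rpsa was not among the 5 members called. Rpl7 gave 0.34 in its brightest probe set and 0.70 in its dimmer one. Rpl3 gave 0.34 and -0.098, and Rps24 0.33 and -0.0071, so the dimmer probe sets of both genes gave values at or below 0, with SE of 0.16 and 0.15. In L629F against wild type, Rpl14 gave -0.19 in its brightest and 0.45 in its dimmer probe set, which had a mean signal of 132. The 3 of Rpsa gave 0.011, -0.21 and 0.25 in that comparison, from the brightest to the dimmest. Both probe sets of Rpl7l1 gave close values, 0.18 and 0.19. A further 30 probe sets listed several ribosomal protein symbols and are no members. Of the 27 bright ones, 26 were higher with iodide, with a median of 0.32, and 1 passed.

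L629F was then set against wild type, as the mean of the differences with iodide and with chloride. No member passed in either direction, while 2.07% of all genes were called higher and 1.09% lower. The bright members nevertheless leaned downwards: 34 of 38 had a negative difference in L629F cells (49.4% of all genes had a positive one), with a median of -0.13, against -0.062 over other genes of at least 9000 and -0.0034 over all genes. Quantile normalization, which largely takes off a shift shared by the brightest genes, left -0.027 over the bright members. At an unadjusted p under 0.05, 5 members were lower and 3 higher, against 9.47% and 10.4% of all genes. Both L629F arrays lay under both wild type arrays with either salt for 5 of 38 bright members, Rpl11, Rpl24, Rpl35, Rpl41 and Rps9, against 8.42% of all genes, and above them for 3 of the 9 others, against 9.37%.

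Rps9 had the lowest value, with signals of 10359 and 11456 in L629F against 14440.0 and 12455 in wild type cells with iodide, and 11298 and 8301 in L629F against 12418 and 12234 in wild type cells with chloride. Its difference was -0.32 ± 0.10 (adjusted p = 0.109). Rpl24 followed with -0.29 ± 0.092 (adjusted p = 0.106), from signals of 11485 and 12055 in L629F against 15508 and 12911 in wild type cells with iodide, and 11997 and 9946 in L629F against 13697 and 13451 in wild type cells with chloride. With either salt the arrays of L629F cells were below those of wild type cells in both genes. Rpl35 gave -0.23 ± 0.082 (adjusted p = 0.15). Rpl37a, a zinc-binding 60S protein, and Rpl21 were the highest of the bright members at 0.11 ± 0.10 and 0.13 ± 0.11.

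Among the other members, Rps27l had signals of 3466 and 3082 in L629F against 2245 and 2741 in wild type cells with iodide, and 2836 and 2168 in L629F against 1784 and 1846 in wild type cells with chloride. The arrays of the 2 lines did not overlap with either salt, and the difference was 0.42 ± 0.12 (adjusted p = 0.0681). Centring the arrays on the bright members put the all-gene median at 0.12, with 347 of 10047 genes called higher and 27 lower. Rps27l then stood at 0.54 ± 0.14 (adjusted p = 0.0279) and Rpl37a at 0.23 ± 0.062 (adjusted p = 0.0351). Rpl37-ps2, Rpl26l1 and Rpl30 had the highest differences of all members, 0.52 ± 0.25, 0.49 ± 0.21 and 0.46 ± 0.36, with adjusted p of at least 0.216. These are dim, and low signals as such were higher on the L629F arrays: the 25th percentile of all signals was 43.2 and 40.9 on L629F iodide and 42.4 and 41 on L629F chloride arrays, against 29.3 and 31.6 on wild type iodide and 30 and 29.7 on wild type chloride arrays. Its part in these differences was not tested.

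By salt, no member passed either. With iodide the median of the bright members was -0.20 (20 of 47 tested members entirely lower in L629F, against 20.7% of all genes, with 0.129% of all genes called lower and 0.358% higher). With chloride it was -0.069 (7 of 47 entirely lower, against 23%, with 0.149% called lower and 0.338% higher). The lowest values were in Rps23, Rpl19 and Rps9 with iodide (-0.39, -0.30 and -0.30) and in Rpl28, Rps9 and Rpl24 with chloride (-0.55, -0.35 and -0.31). Centring on every probe set of the array, which moved the all-gene median to -0.17, gave 29 members called lower in the average, beside 1230 of all genes lower and 146 higher. As deposited these counts were 110 lower and 208 higher, and centred on the other bright genes 54 lower and 197 higher.

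Genes that work with the ribosome were read from lists set beside the members. The lists overlap: several elongation and initiation factors, among them Eef1a1 and Eif3f, are also counted with the other TOP mRNAs. In the iodide average none of the lists of partner genes had a gene past the threshold. All 19 tested other TOP mRNAs had positive differences, with a median of 0.24, led by Hnrnpa1 (0.42 ± 0.10, adjusted p = 0.0549), a splicing regulator, and Rack1 (0.32 ± 0.086, adjusted p = 0.0803), a scaffold on the 40S subunit. All 9 elongation and release factors had positive differences, with a median of 0.20, as had 28 of 32 initiation factors (median 0.21), among them Eif3b (0.38 ± 0.099). Of 73 mitochondrial ribosomal proteins, encoded in the nucleus and built into another ribosome, 53 had one, with a median of 0.12. The 17 tested genes of the mTORC1 and S6 kinase arm had 8 positive values and a median of -0.0011. Over all genes 52.2% had a positive difference. The lists also differ in brightness, with median signals of 8783, 8268, 4303, 1897 and 1021 in the order given. Among the other genes of 9000 to 12000, 76 of 90 were positive, with a median of 0.16. The part of signal level in the differences of the lists was not tested.

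A pair of lists were drawn from the members themselves. The 11 tested genes in which variants cause Diamond-Blackfan anaemia in humans are all bright members. All had positive differences with iodide, as had all 38 bright members. Of the 11, 2 passed the test, Rpl35 and Rps28, where 6 of the 47 members and 0.518% of all genes did. Of 5 tested Mdm2-binding proteins, Rpl5, Rpl11, Rpl23, Rps3 and Rps27l, all had positive differences, as had 44 of the 47 members, and none passed. In the L629F average, the 11 were all negative, none past the threshold, where only 4 of the 38 bright members were positive.

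In L629F against wild type cells, 2 of the 17 tested genes of the mTORC1 list rose, where 2.07% of all genes did. Pdcd4, an inhibitor of the helicase Eif4a that S6 kinase marks for breakdown, had signals of 10958 and 10734 in L629F against 6812 and 5943 in wild type cells with iodide, and 10815 and 10432 in L629F against 7781 and 7751 in wild type cells with chloride. The lines did not overlap, and the difference was 0.61 ± 0.083 (adjusted p = 0.0022). Eif4ebp1, which holds back the cap-binding protein until mTORC1 phosphorylates it, had signals of 4758 and 6546 in L629F against 2337 and 3507 in wild type cells with iodide, and 4292 and 5248 in L629F against 2807 and 3729 in wild type cells with chloride, a difference of 0.75 ± 0.15 (adjusted p = 0.017). Of the 73 mitochondrial ribosomal proteins tested, where 1.09% of all genes fell, 2 did, Mrps35 (-0.57 ± 0.12, adjusted p = 0.021) and Mrps18b (-0.45 ± 0.10, adjusted p = 0.0369). No other TOP mRNA, initiation factor or elongation factor passed, with medians of -0.13, -0.088 and -0.13.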

How the data were processed

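Total RNA of each sample was hybridised to a 1-colour Affymetrix array, and the deposited table held 1 column per sample, 8 in all. Per the submitters' processing notes the authors summarised probes with MAS5; the sources used here name neither its version nor a genome build. The deposited values were linear intensity signals for 31099 probe sets, with a trimmed mean near 500.2 on every array. Probe sets were named from GEO's platform annotation, and 48 of 50 members matched a current RefSeq entry by its gene ID, with Rpl37a and Rps9 found in RefSeq by symbol only.

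Signals were read as log2(signal + 35.3), 35.3 being the level that 25% of signals fall under. The lowest 40% of probe sets by mean were left out (18631 kept), each gene was read through its brightest probe set, and limma 3.58.1 (R 4.3.3; lmFit, eBayes with intensity trend, 1 coefficient per group, 4 residual and 9.43 prior degrees of freedom) was fitted to 10047 genes, with two-sided p-values adjusted by Benjamini-Hochberg over all genes, at 0.05. The median SE of a bright member's average difference was 0.0889, and among the dim members the SE reached 0.36 (Rpl30). The number of arrays limits the precision.

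Members and lists were chosen with earlier results of these data known. Named genes were members past the threshold, the 3 highest and 3 lowest in each comparison, the 5 brightest and 5 dimmest, relatives, Rps6, Rpsa, Rpl5 and Rpl11, members whose probe sets differed, and up to 4 genes of each other list by smallest p; further members such as Rpl24, Rps9, Rpl21, Rpl37a, Rpl41, Rps15a and Rps27l were also named after their values were seen. No scan date or other batch was given in the labels. Alternatives covered the pseudocount, filter, scaling, probe set choice, moderation, replicate number, threshold, single arrays and the Gapdh ratio.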

Additional observations from a re-analysis of the deposited data

How the results depend on the processing

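Of the counts and medians over the members that answer a comparison, 286 of 336 recomputed values stayed close, and the rest follow. Close means within 1.5 times for a count, and within 0.112 for a median, the SD of the members' median between replicate arrays on the log2 scale. Most of the counts were 0 as deposited and stayed 0. The only count above 0, the 6 members with iodide, moved under most alternatives. For L629F in the average the median over the members was -0.12, near the size of 0.112, so its -0.023 under quantile normalization counts as close. The 6 members called with iodide became 0 with no filter on dim probe sets, 0 under quantile normalization, 0 without the intensity trend, 3 with the mean or the dimmest probe set of a gene, 22 with each array centred on every probe set, 23 at a threshold of 0.10, 2 (both lower) when centred on the bright members, 1 with the Gapdh ratio as covariate and 0 with the 2 arrays highest in it left out. The 0 calls of L629F against wild type became 29, all lower, when centred on all probe sets, 2 (both higher) when centred on the bright members, 1 with the Gapdh ratio and 1 at a threshold of 0.10, at which 1 member was called with iodide in wild type cells. Over all genes, centring on the bright members called 2099 lower and 7 higher with iodide, and 347 higher and 27 lower for L629F. At the threshold of 0.10, 162 of all genes were higher and 210 lower with iodide in the average. With the replicate number as a block the calls were 29 with iodide in the average, 7 in wild type cells and 3 for L629F in the average. Over all genes, 250 were then higher and 271 lower with iodide in the average. Same-numbered arrays of different groups correlated by 0.04 to 0.23 in their deviations from the group means, all positive. In every group the second array had the higher Gapdh and actin ratio. The labels do not say whether the number marks a shared batch, and this was not tested. For the other changes, the cause was not tested.

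Without 1 array in turn, the calls with iodide ran from 0 to 28 in the average, 0 to 6 in wild type cells, and the calls of L629F from 0 to 1, with 6 and 1 called without the first wild type iodide array. None was left without either wild type chloride array, the second L629F chloride array or either L629F iodide array; 28 were called without the first wild type iodide array, 1 without the second, and 3 without the first L629F chloride array. The medians ran from 0.27 to 0.39 with iodide in the average, 0.25 to 0.51 in wild type cells, 0.19 to 0.37 in L629F cells, -0.24 to 0.025 for the difference between lines, -0.19 to -0.057 for L629F in the average, -0.15 to 0.025 with chloride and -0.27 to -0.024 with iodide.

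Quantile normalization, which largely takes off a shift shared by the brightest genes, gave medians of 0.011 (average), 0.0036 (wild type) and 0.0197 (L629F) with iodide. For L629F against wild type with iodide it gave 0.0048. Centred on all probe sets, L629F gave -0.29, -0.21 (chloride) and -0.36 (iodide). Centred on the bright members, the iodide medians were -0.0043, -0.022 (wild type) and -0.0009 (L629F), the difference between lines 0.028, and L629F 0.0087 and 0.0071 (iodide), which this centring sets near 0 by construction. Centred on the other bright genes they were 0.15, 0.17 and 0.12. With the 2 arrays highest in the Gapdh ratio left out, the wild type median was 0.25. The centrings on bright members and on other bright genes and the Gapdh settings were chosen after seeing the data. Rpl28, which ran from -0.26 to 0.14 without 1 array in turn, turned positive with the Gapdh ratio (0.022), and without the second wild type chloride (0.0183), second wild type iodide (0.0368) and first L629F iodide array (0.141). With 2 arrays a group, signal close to background limits the dim members.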
